A study of Mus musculus with 8 samples.

Results

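The vascular endothelial growth factor (VEGF) family was followed in RNA of mouse distal convoluted tubules, a part of the nephron that takes up NaCl by the cotransporter that thiazides block. All 10 genes of the family that were listed were found among the 42416 genes of the count files. They comprised 5 ligands (Vegfa, Vegfb, Vegfc, Vegfd and Pgf), and 5 receptors and co-receptors (Flt1, Kdr, Flt4, Nrp1 and Nrp2). The members were chosen by gene family with their KO and Control expression values in these libraries, and their log2 fold changes, already known, so the KO over Control values of its members are given below as a description and not as a test.

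The study compared 4 KO libraries with 4 Control libraries in work on how calcineurin inhibitor drugs harm the kidney. KO animals were labelled Cnb1fl Tg/Tg, NCCcre Tg/+, TOMATO Tg/+, where Cnb1 is the regulatory subunit of calcineurin (gene symbol Ppp3r1). Control animals were labelled Cnb1fl wt, NCCcre Tg/+, TOMATO Tg/+, so they carried the same Cre, named for the NaCl cotransporter, and the same reporter. All animals received tamoxifen by gavage, 2 mg a day for 5 days, and were studied 3 weeks later. Each library was made from 1000 fragments. The titles name a different animal number for each library, and no age or sex is given. Replicate numbers only name the libraries.

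VEGF ligands are secreted proteins that act on endothelial cells. VEGF-A, the main driver of blood vessel growth and permeability, signals through the receptor kinase encoded by Kdr, while the receptor encoded by Flt1 binds VEGF-A tightly, signals weakly and also takes up VEGF-B and placental growth factor. VEGF-C and VEGF-D act on the receptor encoded by Flt4, best known from lymphatic vessels, and the neuropilins are co-receptors that bind class 3 semaphorins as well. In the kidney, podocytes and tubule cells make VEGF-A, and the receptors lie mainly on glomerular and peritubular endothelium. Within a cell that responds to VEGF, calcineurin and its target NFAT are among the steps downstream of the receptor.

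Ppp3r1, the targeted gene, stood at 86.2 ± 10.8 CPM (counts scaled to library size) in KO and 97.4 ± 9.87 CPM in Control (SD, n = 4 each), with overlapping libraries, so gene-level counts do not check the genotype labels and the groups are called by their deposited label. Ppp3r1 shares 462 exon bases with Wdr92 on the same strand, which held 27.6% as many counts. Total counts ran from 18161442 to 45150953 per library. KO replicate 4 and Control replicate 1 held the lowest Kdr and the lowest endothelial marker levels apart from Ramp2 of their groups, and values without both are given where a result rests on them. The sums of 10 distal convoluted tubule markers lay between 6778 and 12186 CPM in KO and between 18477 and 22808 CPM in Control (exact two-sided permutation p = 0.0286, n = 4 each, the smallest this design allows, adjusted over 3 lists 0.0857). The marker lists were chosen with earlier results of these data known, so permutation p-values of marker sums are a description and not a test. Slc12a3, the cotransporter itself, averaged 5120.1 ± 1988 CPM in KO and 6783 ± 1045 CPM in Control. Other nephron segments were present, with thick ascending limb markers at 2717 to 5412 CPM in KO and 7386 to 12153 CPM in Control, proximal tubule markers at 884 to 1964 CPM in KO and 794 to 3115 CPM in Control, principal cell markers at 151 to 366 CPM in KO and 341 to 588 CPM in Control, and intercalated cell markers at 234 to 536 CPM in KO and 320.1 to 445 CPM in Control. Macrophage markers summed to 16.5 to 73.9 CPM in KO and 9.12 to 9.77 CPM in Control, and fibroblast and pericyte markers to 1.15 to 7.28 CPM in KO and 4.05 to 12.0 CPM in Control. By edgeR QL, 1 of 4 thick ascending limb markers fell (Umod). Of 5 proximal, 6 principal cell, 5 intercalated, 3 fibroblast and 4 macrophage markers tested, 0 passed, where 2.21% of all genes did. At an unadjusted p under 0.05, which 13.9% of all genes had, all 6 principal cell markers were lower and 1 macrophage marker was higher. DESeq2 called 2 and 1 of these, against 4.54% of its genes, and limma-voom 2 and 0, against 3.64%.

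Sequence upstream of the gene is shown for Vegfd, the member with the largest difference between the groups, and for Vegfa, the ligand with most counts. Both are read from RefSeq promoter windows on GRCm38.p6, 5′ to 3′ on the strand of the gene. The Vegfd stretch ends at the base before the gene as annotated in GENCODE vM21. That of Vegfa stops a few bases short of the annotated gene, whose first base on the minus strand is 46032369. The Vegfd stretch is chrX:164373272-164373377, plus strand, 106 bases. That of Vegfa is chr17:46032378-46032627, minus strand, 250 bases. Capitals mark GGAAA or its complement TTTCC, the core to which NFAT factors bind.
Vegfd: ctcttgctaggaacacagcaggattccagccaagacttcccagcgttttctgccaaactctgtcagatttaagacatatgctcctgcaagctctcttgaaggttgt
Vegfa: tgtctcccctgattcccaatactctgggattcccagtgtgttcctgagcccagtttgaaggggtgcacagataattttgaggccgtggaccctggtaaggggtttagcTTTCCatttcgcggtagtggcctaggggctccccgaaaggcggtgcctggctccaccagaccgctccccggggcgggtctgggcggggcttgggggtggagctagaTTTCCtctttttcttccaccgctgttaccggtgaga
The core occurred 2 times in the Vegfa stretch and was not in the Vegfd stretch or elsewhere in the Vegfd window of 300 bases. On either strand it is a common string, present in 61.3% of 32851 promoter windows of that length. The AP-1 motif TGANTCA (7.81% of windows) and the hypoxia motif ACGTG (19.6%) were in neither of the stretches shown. RefSeq gives Vegfa a second window, not printed here, which holds the NFAT core once and ACGTG once. A match in these windows is a description of the letters alone.

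Compared per kilobase of annotated exon, Vegfa, Vegfb and Vegfd had higher mean levels than any receptor in both groups, and Vegfc and Pgf lay among or below the receptors. In KO libraries the order of mean levels was Vegfa (51.9 ± 14.5 CPM per kilobase), Vegfb (44.3 ± 3.54), Vegfd (5.95 ± 0.921), Nrp1 (3.96 ± 0.841), Kdr (0.686 ± 0.726), Flt1 (0.254 ± 0.139), Vegfc (0.201 ± 0.130), Nrp2 (0.0857 ± 0.0140), Flt4 (0.0553 ± 0.0217) and Pgf (0.0169 ± 0.0339; SD, n = 4). In Control libraries Vegfa (60.4 ± 3.02 CPM per kilobase) and Vegfb (59.3 ± 16.1) again came first, then Vegfd (21.95 ± 5.65), Nrp1 (3.40 ± 1.15), Kdr (0.930 ± 0.481), Flt1 (0.287 ± 0.110), Vegfc (0.285 ± 0.0640), Nrp2 (0.0724 ± 0.0424), Flt4 (0.0563 ± 0.0230) and Pgf (0.0107 ± 0.0127). Between neighbours in the KO order, the libraries were fully apart for Vegfb and Vegfd and for Nrp1 and Kdr, and they overlapped for all other neighbours. In the Control order they were apart for Vegfb and Vegfd, Vegfd and Nrp1, Nrp1 and Kdr, Vegfc and Nrp2, and Flt4 and Pgf, and they overlapped for Vegfa and Vegfb, Kdr and Flt1, Flt1 and Vegfc, and Nrp2 and Flt4. Of 14268 genes tested, 94.7% lay below Vegfa per kilobase in Control, 84.9% below Vegfd, 42.4% below Nrp1 and 19.6% below Kdr.

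**Figure D1:**
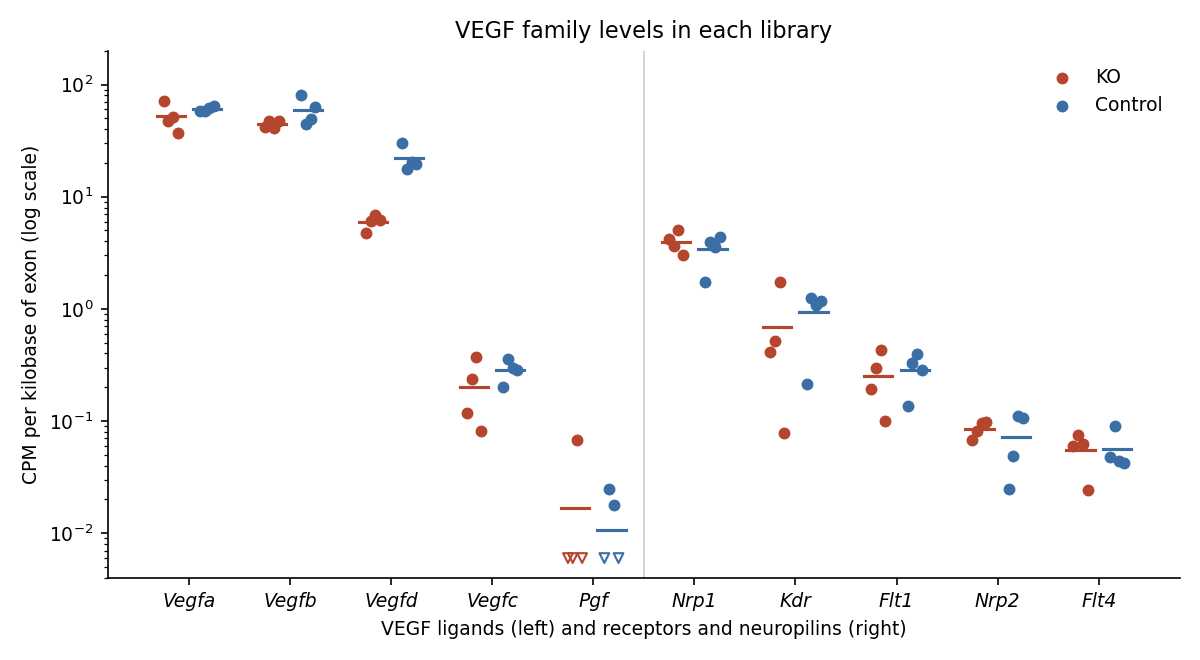
Level of each family member in each library, as CPM per kilobase of annotated exon on a log axis, with KO points left of Control points and a line at each group mean. Open triangles at the bottom mark libraries with 0 Pgf counts. Vegfd is the gene whose groups do not overlap.

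Vegfd (ENSMUSG00000031380, chromosome X, 164373378 to 164402650, plus strand, GRCm38) encodes VEGF-D. Its level was 11.3, 14.6, 16.6 and 14.8 CPM in KO replicates 1 to 4, against 72.8, 42.2, 49.1 and 47.4 CPM in Control replicates 1 to 4. Every KO library lay below every Control library, the KO libraries lay close together, and Control replicate 1 was the highest of all. The means were 14.3 ± 2.22 CPM in KO and 52.9 ± 13.6 CPM in Control (SD, n = 4 each), resting on 1647 counts in KO and 5131 in Control, and the log2 fold change was -1.88 ± 0.19 (SE), 3.69-fold lower in KO. In bulk RNA of this kind, fewer cells that express a gene and less of its RNA per cell cannot be told apart.

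Of the 9 members that passed the filter on low counts, 0 were higher and 1 lower at the threshold applied over all 14268 genes (edgeR quasi-likelihood test, Benjamini-Hochberg adjusted p at or under 0.05), and 2 of the 9 had an unadjusted p under 0.05, Vegfd and Vegfb, as did 13.9% of all genes tested. Of all genes tested, 2.21% were past it, 1.34% in the higher and 0.876% in the lower direction (191 and 125 genes, or 242 and 90 when scaled by library totals). Vegfd was also the 1 member past it by DESeq2, which called 4.54% of its genes, and by limma-voom, which called 3.64%. Separation of all 4 KO from all 4 Control libraries was seen in 1 member, Vegfd, and in 9.44% of genes, and 3.83% of genes had all KO below all Control libraries. Because this contrast was known when the family was chosen, nothing is read from these counts. The median log2 fold change was -0.22 over the 9 members and -0.02 over all genes, with 7 values negative and 2 positive.

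The Vegfd difference was of the same size in subsets of the libraries. In the pair of libraries whose file names hold index sequences, 1 KO and 1 Control, Vegfd stood at 11.3 CPM in KO and 42.2 CPM in Control (log2 ratio -1.90). In the other 3 and 3 libraries it averaged 15.3 CPM in KO and 56.4 CPM in Control (-1.88). Without KO replicate 4 and Control replicate 1 the log2 fold change was -1.71, and leaving out 1 library at a time gave -1.98 to -1.70. Scaling by library totals gave -1.73, with the median over all genes then at 0.13.

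Vegfd was also set against other tubule transcripts, whose levels differ between the groups. Per 1000 CPM of Slc12a3, which did not pass the threshold itself, Vegfd was at 1.40, 3.23, 4.26 and 3.72 CPM in KO and 12.9, 6.72, 6.86 and 5.89 CPM in Control replicates 1 to 4. These ratios did not overlap. Per 1000 CPM of the 10 distal convoluted tubule markers together it ran from 0.928 to 2.18 CPM in KO and from 2.08 to 3.87 CPM in Control, and here KO replicate 4 reached above Control replicate 4. Most of that marker sum was itself lower in KO, with 6 of the 10 markers past the threshold in that direction and 1, Tfap2b, in the other. Of all genes tested, 0.876% passed in the lower and 1.34% in the higher direction. Per 1000 CPM of Umod, a thick ascending limb gene, Vegfd ran from 2.49 to 6.09 CPM in KO and from 4.33 to 7.78 CPM in Control. Per 1000 CPM of the 10 markers Vegfa, by contrast, was at 21.0 to 25.2 CPM in KO and 12.1 to 13.5 CPM in Control. The part that tubule cell make-up has in the Vegfd difference was not tested.

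The genes whose profile over the 8 libraries was most like that of Vegfd, after each profile was centred and scaled to its own SD, were Afm, Pvalb, Cables1, Larp1b and Tdrd3, with root mean square differences of 0.151 to 0.183 SD among 10382 protein-coding genes. This search was added after the Vegfd values were seen. Pvalb, which encodes parvalbumin, a calcium-binding protein of the early distal convoluted tubule, was at 1.503 to 2.14 CPM in KO and 179 to 987 CPM in Control. Cables1 was at 18.2 to 20.3 CPM in KO and 64.9 to 108 CPM in Control, and Afm, the vitamin E-binding protein afamin, at 30.9 to 42.0 CPM in KO and 86.9 to 119 CPM in Control. Like Vegfd, Pvalb and Cables1 were highest in Control replicate 1 and lowest among Control libraries in Control replicate 2.

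Vegfa (ENSMUSG00000023951, chromosome 17, 46016993 to 46032369, minus strand) was at 307, 203, 220.5 and 159 CPM in KO replicates 1 to 4, against 248, 250, 262 and 276 CPM in Control replicates 1 to 4. The Control libraries lay close together, and the KO libraries spread to both sides of them, with replicate 1 above all Control libraries and the other 3 below. The means were 222 ± 62.1 CPM in KO and 259 ± 12.9 CPM in Control, a log2 fold change of -0.22 ± 0.18 (SE). The log2 ratio was 0.30 in the 1 KO and 1 Control library with index sequences in the file name and -0.43 in the other 3 and 3. With KO replicate 1 as the only KO library of that form, the form of the name and the animal cannot be told apart, and a batch term for it gave -0.25. Without KO replicate 1 the log2 fold change was -0.42.

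Genes most like Vegfa by the same measure were Dusp15, Akap17b, Odr4, Cdc42ep1 and Esrrb, at 0.218 to 0.402 SD. Dusp15, a dual-specificity phosphatase, was at 34.2, 15.2, 15.0 and 6.16 CPM in KO replicates 1 to 4 and 18.9 to 27.6 CPM in Control. It shared with Vegfa the highest value in KO replicate 1 and the lowest in KO replicate 4. Esrrb, an orphan nuclear receptor, was at 100.1, 61.3, 72.2 and 56.8 CPM in KO and 87.0 to 115 CPM in Control.

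Vegfb (ENSMUSG00000024962, chromosome 19, 6982473 to 6987651, minus strand) was at 67.0, 75.8, 65.4 and 76.1 CPM in KO, against 129, 71.3, 78.9 and 101 CPM in Control replicates 1 to 4. The groups overlapped through Control replicate 2. Means were 71.1 ± 5.68 CPM in KO and 95.1 ± 25.8 CPM in Control, a log2 fold change of -0.42 ± 0.18 (SE), which was -0.24 without Control replicate 1.

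Vegfc and Pgf were near the limit of detection. Vegfc (chromosome 8, 54077606 to 54187096, plus strand) had 14, 15, 23 and 4 counts in KO and 10, 36, 14 and 14 in Control, which correspond to 0.288, 0.578, 0.905 and 0.2005 CPM in KO and 0.488, 0.866, 0.732 and 0.702 CPM in Control. The groups overlapped, and the log2 fold change of -0.52 ± 0.48 (SE) was -0.98 without KO replicate 3. Pgf (chromosome 12, 85166635 to 85177790, minus strand), which encodes placental growth factor, did not pass the filter and has no fold change. It had 5 counts in KO, all in replicate 3, and 3 and 1 counts in Control replicates 2 and 3. Where it had 0 counts, 3 counts would be 0.0616 to 0.150 CPM in KO and 0.146 to 0.150 CPM in Control, and differences below that were not detectable at this depth.

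Taken as shares of the 5 ligands per kilobase, Vegfd made up 3.97% to 6.94% in KO and 13.3% to 17.9% in Control, with no overlap. Vegfa held 40.9% to 60.6% in KO and 34.3% to 48.3% in Control, and Vegfb held 35.3% to 52.3% in KO and 36.9% to 47.6% in Control. The groups overlapped for both. The ratio of Vegfa to Vegfd per kilobase was 15.2, 7.80, 7.44 and 6.04 in KO replicates 1 to 4, against 1.91, 3.33, 3.00 and 3.27 in Control replicates 1 to 4.

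**Figure D2:**
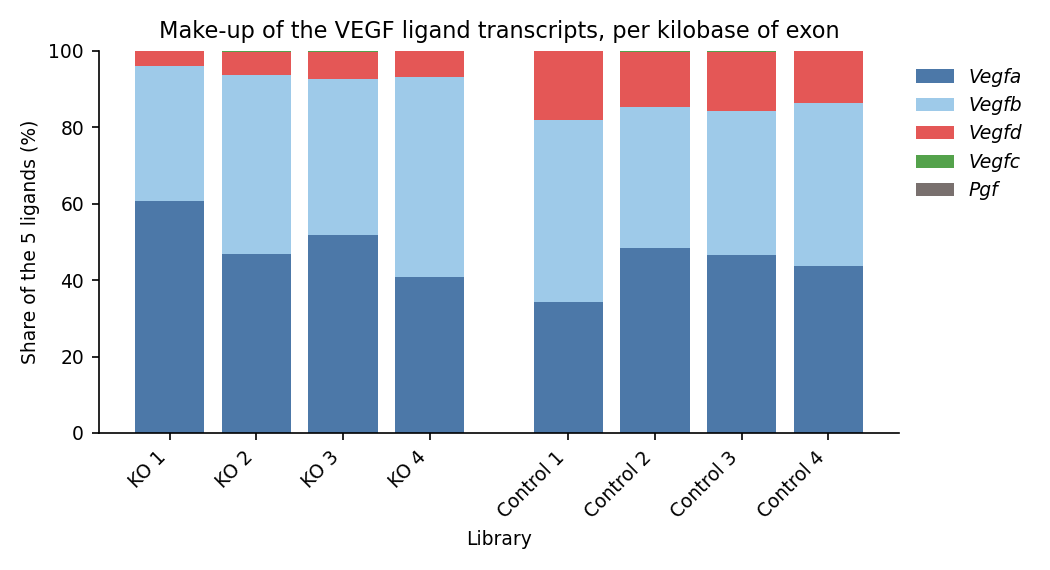
Share of each VEGF ligand in the sum of the 5 ligands, in percent and per kilobase of exon, for each library, KO left and Control right. The Vegfd band spans 3.97% to 6.94% in KO libraries and 13.3% to 17.9% in Control libraries, while Vegfc and Pgf are too small to see.

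The receptor kinases were low, and their groups overlapped. Kdr (ENSMUSG00000062960, chromosome 5, 75932827 to 75978458, minus strand), the main signalling receptor for VEGF-A, was at 3.70, 4.67, 15.7 and 0.702 CPM in KO replicates 1 to 4, against 1.95, 11.3, 9.77 and 10.6 CPM in Control replicates 1 to 4. Its highest and lowest libraries were both KO libraries, 22.4-fold apart. The means were 6.19 ± 6.56 CPM in KO and 8.40 ± 4.34 CPM in Control, a log2 fold change of -0.44 ± 0.75 (SE), which was -1.47 without KO replicate 3 and -0.08 without KO replicate 4.

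Flt1 (ENSMUSG00000029648, chromosome 5, 147561604 to 147726011, minus strand) was at 2.63, 3.97, 5.74 and 1.35 CPM in KO, against 1.85, 4.43, 5.38 and 3.86 CPM in Control replicates 1 to 4. As with Kdr, KO replicate 3 was the highest and KO replicate 4 the lowest library, and Control replicate 1 was the lowest Control library. Its log2 fold change was -0.18 ± 0.44 (SE), and it was positive without Control replicate 3 (0.01) or without KO replicate 4 (0.07). Flt4 (chromosome 11, 49609263 to 49652739, plus strand), the receptor for VEGF-D, had 57 counts over the KO libraries and 53 over the Control libraries. It ran from 0.2005 to 0.617 CPM in KO and from 0.351 to 0.746 CPM in Control, with a log2 fold change of -0.05 ± 0.44 (SE) that turned positive with library totals (0.08).

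Of the neuropilins, Nrp1 was above the kinases per kilobase and Nrp2 was not. Nrp1 (ENSMUSG00000025810, chromosome 8, 128358604 to 128503363, plus strand) was at 40.9, 35.2, 49.0 and 29.8 CPM in KO, against 17.1, 38.6, 34.8 and 42.7 CPM in Control replicates 1 to 4. Control replicate 1 was the lowest library and the others overlapped. The log2 fold change was 0.22 ± 0.26 (SE), and it was -0.002 without Control replicate 1. Mir1903 lies in an exon of Nrp1 and held 2.01% as many counts. Nrp2 (chromosome 1, 62703285 to 62818695, plus strand) ran from 0.802 to 1.15 CPM in KO and from 0.293 to 1.31 CPM in Control, with a log2 fold change of 0.25 ± 0.45 (SE) that was -0.03 without Control replicate 1. Per kilobase, Nrp1 held 68.3% to 91.0% of the 5 receptors and co-receptors in KO and 68.5% to 80.4% in Control.

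**Figure D3:**
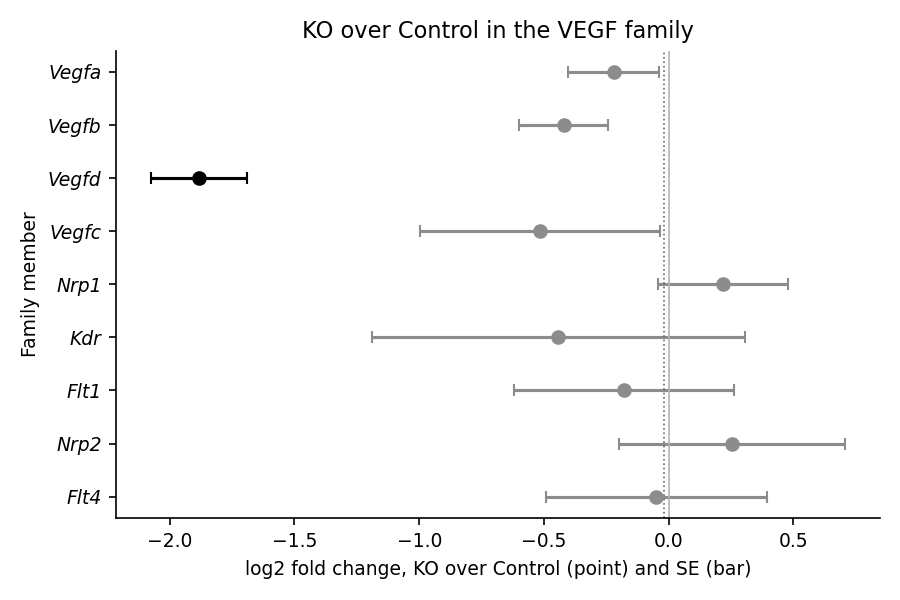
Log2 fold change of KO over Control for the 9 members that passed the filter, with bars of 1 SE and a dotted line at the median of all genes. Vegfd, in black, is past the threshold over all genes at -1.88, and the other 8, in grey, lie between -0.52 and 0.25.

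Endothelial RNA was present in all libraries at a low level, and the receptors are read beside it. The 23 blood endothelial markers summed to 110 to 182 CPM in KO and 149 to 158 CPM in Control, with no marker at 0 over all libraries, and 0 of the 21 tested passed the threshold in either direction by edgeR, DESeq2 or limma-voom, and 0 had an unadjusted p under 0.05. Of all genes, 2.21% passed by edgeR, 4.54% by DESeq2 and 3.64% by limma-voom, and 13.9% had such an unadjusted p. Of the 21 markers tested, 18 had a negative log2 fold change. The median of the 21 was -0.41, against -0.02 over all genes and -0.44 for Kdr. The difference in the sum was not past the threshold (exact two-sided permutation p = 0.4, n = 4 each, adjusted over 3 lists 0.571), at -13.7 CPM for KO minus Control. It was -27.2 CPM without KO replicate 3 (exact permutation p = 0.0286, the smallest the 7 libraries allow) and 0.669 CPM with library totals as the scaling. Ramp2, a receptor activity-modifying protein, held 43.2% to 77.9% of the sum in KO and 47.4% to 72.4% in Control. The other markers, led by Ehd3 and Emcn, gave 46.4, 55.8, 103 and 24.3 CPM in KO replicates 1 to 4, against 42.9, 74.6, 74.1 and 83.0 CPM in Control replicates 1 to 4. KO replicate 3 was thus the highest and KO replicate 4 the lowest library, as they were for Kdr and Flt1.

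Scaled to this sum without Ramp2, Flt1 was at 5.56% to 7.12% in KO and 4.32% to 7.26% in Control. Kdr was at 7.99%, 8.37%, 15.2% and 2.89% in KO and 4.55%, 15.1%, 13.2% and 12.8% in Control replicates 1 to 4, so it varied more than the markers themselves. Nrp1 was at 88.2%, 63.1%, 47.4% and 123% in KO replicates 1 to 4, against 39.9%, 51.7%, 46.9% and 51.4% in Control replicates 1 to 4. The marker sum is the denominator of these percentages. KO replicate 4 and Control replicate 1, with the lowest sums, had the highest and the lowest percentage for Nrp1. The gene with the profile most like Kdr was Ptprb, the receptor phosphatase of vascular endothelium and itself one of the markers, at 1.40 to 8.58 CPM in KO and 2.24 to 7.77 CPM in Control (0.198 SD). Ttc7b, Hspa12a, Sh3gl2 and Adgrf5 followed at 0.223 to 0.252 SD.

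**Figure D4:**
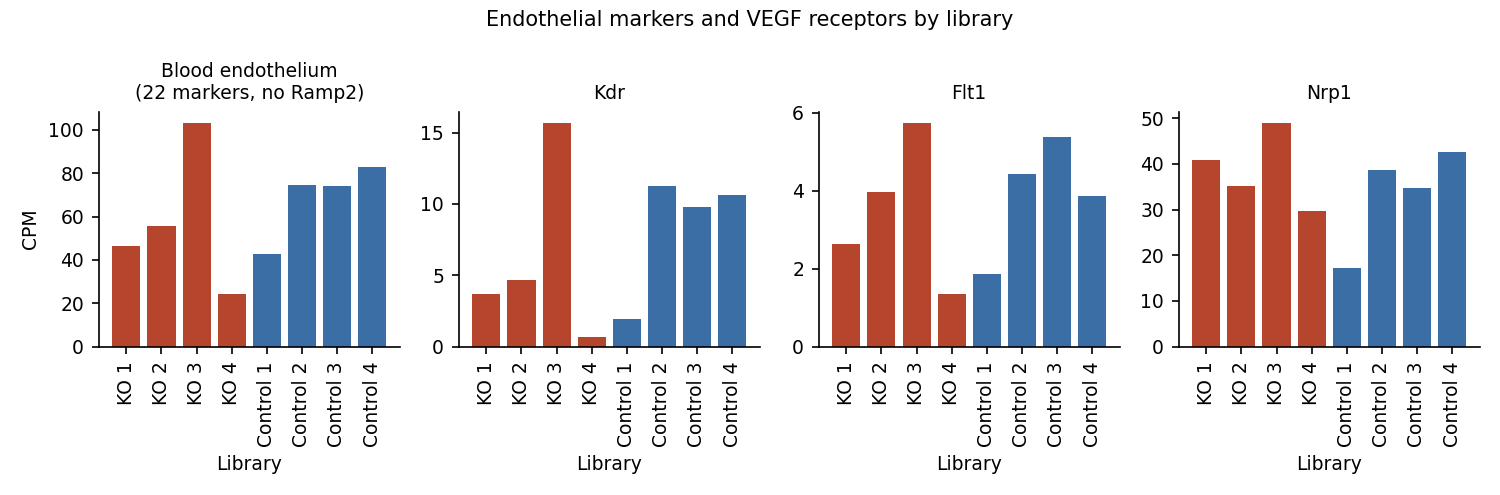
CPM in each library for the sum of 22 blood endothelial markers (without Ramp2), Kdr, Flt1 and Nrp1, KO libraries left and Control libraries right. KO replicate 3 is highest and KO replicate 4 lowest for the markers, Kdr and Flt1, while Nrp1 is lowest in Control replicate 1.

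Of the defining markers of lymphatic vessels, Lyve1 and Ccl21a had 0 counts in all 8 libraries. Prox1 and Pdpn were at 63.2 ± 5.20 and 43.9 ± 10.99 CPM in KO and 45.8 ± 5.94 and 27.3 ± 3.49 CPM in Control, and made up nearly all of a list sum of 99.0 to 117 CPM in KO and 64.3 to 85.5 CPM in Control. Of the 3 tested, 0 passed the threshold by edgeR or limma-voom, 2 were higher at an unadjusted p under 0.05, and DESeq2 called 2 higher. Of all genes, 13.9% had such a p, edgeR called 2.21%, limma-voom 3.64% and DESeq2 4.54%. Podocyte markers, of the glomerular cells that make VEGF-A, summed to 14.9 to 105 CPM in KO and 17.8 to 147 CPM in Control (exact two-sided permutation p = 0.571, n = 4 each), and 0 of the 7 passed by edgeR, DESeq2 or limma-voom or at an unadjusted p under 0.05. Beside them, Vegfa in Control was at 248 to 276 CPM, lowest in replicate 1 and highest in replicate 4, as the podocyte markers were. In KO both were lowest in replicate 4. Vegfa was highest in KO replicate 1, where the markers stood at 41.9 CPM, and the markers were highest in KO replicate 3, where Vegfa was at 220.5 CPM. The part of podocyte RNA in the Vegfa level was not tested.

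Other genes of the pathway were read from the same fit over all genes, in 6 lists. In the list of VEGF signalling inside the cell, 1 of 42 tested members rose, 1 fell and 40 did not pass, where 2.21% of all genes passed, with a median log2 fold change of 0.02. Before adjustment, 4 with positive and 4 with negative fold change had an edgeR QL p below 0.05, against 13.9% of all genes. DESeq2 called 2 higher and 2 lower, against 4.54% of its genes, and limma-voom 3 and 1, against 3.64%. Over the 18 settings tried, the number of the list that passed ran from 0 to 4. Pik3r1, the main regulatory subunit of phosphoinositide 3-kinase, had 137, 164, 151 and 181 CPM in KO replicates 1 to 4, against 81.6, 108, 79.5 and 93.4 CPM in Control replicates 1 to 4. It rose by 0.80 ± 0.14 on the log2 scale (edgeR QL adjusted p = 0.0208), with no overlap of the groups. Pik3r3, another regulatory subunit, was at 52.8 ± 3.02 CPM in KO and 76.4 ± 8.25 CPM in Control and fell by 0.53 ± 0.11 on the log2 scale (edgeR QL adjusted p = 0.0415). It shares 1289 exon bases with Gm49337 on the same strand, which held 23.3% as many counts. The endothelial nitric oxide synthase Nos3 was at 0.555 ± 0.139 CPM in KO and 0.610 ± 0.236 CPM in Control.

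Genes that set Vegfa transcription and mRNA decay did not pass. Of 18 tested, 0 passed by edgeR, DESeq2 or limma-voom, and 2 were lower at an unadjusted p under 0.05, against 13.9% of all genes, namely Egln1 and Vhl, which mark hypoxia-inducible factors for destruction. Without Control replicate 2, 1 of the list passed. Egln1 was at 71.1 ± 3.95 CPM in KO and 99.7 ± 22.3 CPM in Control (log2 fold change -0.49 ± 0.15, edgeR QL adjusted p = 0.169), and Vhl at 19.3 ± 0.542 CPM in KO and 25.4 ± 4.24 CPM in Control (-0.40 ± 0.13, adjusted p = 0.191). Hif1a and Epas1, the factors themselves, had log2 fold changes of 0.23 ± 0.19 and -0.10 ± 0.21. Of 25 tested hypoxia-inducible genes, which share hypoxic induction with Vegfa, 1 rose, 1 fell and 23 did not pass. Their median log2 fold change was -0.12, and 2.21% of all genes passed. Before adjustment, 4 of them with positive and 2 with negative fold change had an edgeR QL p below 0.05, against 13.9% of all genes. DESeq2 called 2 higher and 1 lower, against 4.54% of its genes, and limma-voom 1 and 1, against 3.64%. Ero1l, an oxidoreductase of protein folding, rose to 43.4 ± 3.85 CPM in KO, against 28.0 ± 3.996 CPM in Control (0.63 ± 0.13, edgeR QL adjusted p = 0.0410), and Mxi1, a MYC antagonist, fell to 41.5 ± 3.41 CPM in KO, against 64.7 ± 7.82 CPM in Control (-0.64 ± 0.12, adjusted p = 0.0272).

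Of 18 tested secreted factors of blood vessel growth outside the VEGF family, 2 rose, 1 fell and 15 did not pass. Their median log2 fold change was 0.09, and 2.21% of all genes passed. Before adjustment, edgeR QL gave p below 0.05 to 5 genes with positive and 1 with negative fold change, against 13.9% of all genes. DESeq2 called 3 higher and 1 lower, against 4.54% of its genes, and limma-voom 2 and 1, against 3.64%. Angpt1, the angiopoietin that steadies vessels through the receptor Tek, was at 37.2, 42.2, 54.7 and 47.9 CPM in KO, against 21.9, 23.3, 29.2 and 26.1 CPM in Control replicates 1 to 4. It rose by 0.86 ± 0.15 on the log2 scale (edgeR QL adjusted p = 0.0207). Thbs1, the antiangiogenic matrix protein thrombospondin-1, rose to 208 ± 45.9 CPM in KO, against 113 ± 19.4 CPM in Control (0.88 ± 0.18, edgeR QL adjusted p = 0.0410). Egfl6, a secreted EGF-like protein, was at 4.28, 5.20, 7.20 and 3.91 CPM in KO, against 11.7, 20.8, 13.6 and 20.5 CPM in Control replicates 1 to 4. It fell by 1.69 ± 0.26 on the log2 scale (edgeR QL adjusted p = 0.0142). Leaving out 1 library at a time gave folds of like size for the 7 pathway genes that passed, on the log2 scale 0.73 to 0.90 for Pik3r1, -0.59 to -0.47 for Pik3r3, -0.70 to -0.57 for Mxi1, 0.53 to 0.69 for Ero1l, -1.91 to -1.57 for Egfl6, 0.74 to 0.94 for Angpt1 and 0.74 to 1.00 for Thbs1. Their calls were often lost, as were calls over all genes. Egfl6 lost its call without Control replicate 4 or KO replicate 2, Angpt1 without any one of Control replicates 2 and 4 and KO replicates 2 and 4, and Thbs1 without any one of the 8 libraries. Pik3r1 lost its call without any one of Control replicates 3 and 4 and KO replicates 2 and 4, Mxi1 without any one of Control replicates 2 and 4 and KO replicates 1, 2 and 4, Pik3r3 without any one of 7 libraries (all but Control replicate 1), and Ero1l without any one of the 8. Without KO replicate 4 and Control replicate 1 together, Egfl6 and Pik3r3 were past the threshold and the other 5 were not. With a replicate block by the series of the animal number all 7 lost their call, with edgeR QL adjusted p of 0.0671 for Egfl6, 0.0835 for Angpt1, 0.0970 for Pik3r1 and Mxi1, 0.117 for Ero1l, 0.153 for Pik3r3 and 0.174 for Thbs1. A batch term for how files were named ended the calls of Pik3r3 (0.0713), Ero1l (0.0669) and Thbs1 (0.0674). Scaling by library totals ended those of Pik3r3 (edgeR QL adjusted p = 0.163) and Mxi1 (0.0671). A filter at 5 CPM in 4 libraries ended those of Ero1l (0.0587) and Thbs1 (0.0642). Thbs1 was also not called by limma-voom (adjusted p = 0.0569).

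Among the neuropilin partners, 0 of 11 tested passed by edgeR QL, 2 were higher and 1 lower at an unadjusted p under 0.05, and DESeq2 and limma-voom each called 2 higher. Of all genes, 13.9% had such a p, DESeq2 called 4.54% and limma-voom 3.64%. Without Control replicate 2, or without KO replicate 3, 1 of the list passed by edgeR QL. The plexins Plxna2 and Plxna1, receptors for semaphorins, had the smallest p. Plxna2 was at 88.4, 93.6, 85.6 and 164 CPM in KO, against 20.2, 63.3, 41.1 and 26.8 CPM in Control replicates 1 to 4 (log2 fold change 1.51 ± 0.35, edgeR QL adjusted p = 0.0627). Plxna1 was at 50.6 ± 8.54 CPM in KO and 30.9 ± 6.01 CPM in Control (0.71 ± 0.18, adjusted p = 0.0814).

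Of 10 tested genes of VEGF processing and release, 0 passed by edgeR QL, 1 was higher and 2 lower at an unadjusted p under 0.05, and DESeq2 and limma-voom each called 1 lower, beside the same shares of all genes. Adamts3, the protease that matures VEGF-C, was at 0.925, 0.810, 0.708 and 0.902 CPM in KO, against 1.80, 1.76, 1.78 and 3.66 CPM in Control replicates 1 to 4. The groups did not overlap, and its log2 fold change of -1.41 ± 0.34 had an edgeR QL adjusted p of 0.0684. Plau, the urokinase that can cut VEGF from matrix, was at 61.9 ± 23.3 CPM in KO and 107 ± 22.4 CPM in Control (-0.78 ± 0.26, edgeR QL adjusted p = 0.2095).

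**Figure D5:**
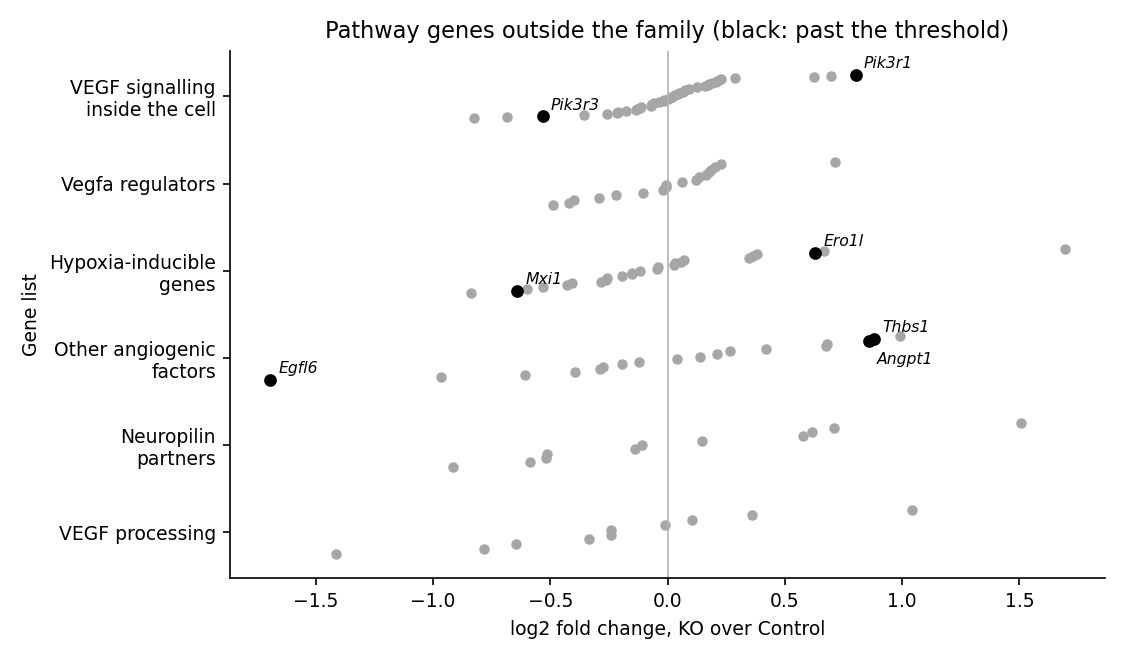
Log2 fold change of KO over Control for each tested gene of the 6 pathway lists, 1 row a list, with genes past the threshold in black and named. The 7 named genes lie between -1.69 (Egfl6) and 0.88 (Thbs1), and 3 of the 6 lists hold none.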

How the data were processed

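RNA of sorted distal convoluted tubule fragments was sequenced from 4 KO and 4 Control animals, grouped by the genotype label. The authors deposited whole-number counts per gene for each library. STAR 2.7.4a, bcl2fastq 2.20 and fastp 0.20.0 with GRCm38.p6 were used, per the submitters' processing notes. For the counter, its annotation and strandedness nothing is given in the sources used here, so overlapping genes may share counts. Of 42416 gene IDs, 42347 were named from GENCODE vM21, and the other 69 hold 0.0199% of counts.

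Counts were filtered (filterByExpr), scaled by TMM and tested with edgeR 4.0.16 (quasi-likelihood, R 4.3.3) over 14268 genes, with Benjamini-Hochberg adjustment and a threshold of 0.05. CPM use TMM library sizes, and levels per kilobase divide by merged exon length. The TMM factors were 1.008 to 1.10 in KO and 0.885 to 0.981 in Control libraries, with no overlap. Standard errors are the log2 fold change over the root of F. Alternatives were DESeq2 1.42.0, limma 3.58.1 (voom with quality weights), other scalings, filters and left-out libraries. Marker sums were compared by exact permutation, and the endothelial sum without Ramp2 was added to those planned. P-values measure the spread between these animals.

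The members and lists were chosen with earlier results of these data known. Named genes are all members, list genes past the threshold (at most 6 a list by p, otherwise the 2 of smallest p), the 3 markers highest in CPM and any at 0 counts, and the 5 protein-coding genes of at least 5 CPM most like Vegfa and Kdr; the search for Vegfd, and Nos3, Hif1a, Epas1 and Tfap2b, were chosen after values were seen. On data simulated for this comparison (14047 genes) the fit recovered 19.4% of genes changed 1.5-fold and 71.6% of those changed 2-fold. Only genes with a mean of at least 2 CPM were changed there, so these rates do not cover Vegfc, Flt4 and Nrp2, which lay below that. The rates are pooled over genes of differing spread. They were not worked out for genes as variable as Kdr and Flt1, whose SE were 0.75 and 0.44.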

Additional observations from a re-analysis of the deposited data

Results flagged for a closer look

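Among 40 groups of 4 libraries examined, 3 held a library whose gap to its nearest neighbour was a large part of the whole range (Dixon's test), where chance gives about 1 in 20. Pgf was at 0.197 CPM in KO replicate 3, from 5 counts, with 0 counts in the other KO libraries. With those libraries tied at 0, any count in replicate 3 would be flagged, so the 1 in 20 rate does not hold there. Kdr was at 1.95 CPM in Control replicate 1, the other Control libraries being at 9.77 to 11.3 CPM. Flt4 was at 0.746 CPM in Control replicate 2, the other Control libraries being at 0.351 to 0.390 CPM.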

How the results depend on the processing

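Vegfd was past the threshold under all 18 settings tried, with log2 fold changes of -1.98 to -1.70, and no other member was past it under any of them. The sign of the log2 fold change was not stable for Flt1 (-0.57 to 0.07), Flt4 (-0.21 to 0.32), Nrp1 (-0.002 to 0.39) and Nrp2 (-0.08 to 0.55). Vegfa ran from -0.42 to -0.07, Vegfb from -0.54 to -0.21, Vegfc from -0.98 to -0.29 and Kdr from -1.47 to -0.08. Over all genes, 316 passed in the fit reported, against 754 with DESeq2, 519 with limma-voom, 140 at 5 CPM or more in 4 libraries, 199 with a batch term for how files were named and 109 without KO replicate 4 and Control replicate 1, an alternative chosen after seeing the data. Leaving out 1 library at a time gave 36 to 388. The replicate numbers were given in accession order and pair no animals. A replicate block by the series of the animal number left 29 genes, Vegfd among them and the 7 named pathway genes not. Control replicate 4 was the only library of its series, so under that block it adds nothing to the contrast. The cause of these shifts was not tested. Depth limits Pgf, Vegfc, Flt4 and Nrp2, which rest on few counts.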
